A study of Mus musculus with 6 samples.

Results

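The core circadian clock genes comprise 10 genes, Arntl, Clock, Npas2, Per1, Per2, Per3, Cry1, Cry2, Nr1d1 and Nr1d2, taken by symbol from the 55335 genes of the mouse aorta data. All 10 were found once each and all 10 passed the filter on low counts, which 16612 genes passed. Aorta was taken from wild-type C57BL/6 mice (c57b6l in the labels) aged 6 weeks (young, 3 libraries) or 6 months (aged, 3 libraries), all stated to be male. Each library was taken as 1 mouse, which the sample titles do not state. Neither age group received a treatment that the labels name. Both were housed under light/dark cycles, killed under xylazine anesthesia, and had the fat around the vessel dissected away. The time of day at which each mouse was killed is not given in the sources used here. In whole tissue, fewer cells of a type and less RNA per cell cannot be told apart.

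The clock is a feedback loop of transcription that runs in nearly every cell. The proteins of Arntl (also called Bmal1) and Clock, or its relative Npas2, bind E-box sequences and activate the Per, Cry and Nr1d genes. PER and CRY proteins then block that activation, while the Nr1d proteins (REV-ERB) compete with ROR proteins at ROR elements and repress Arntl and Npas2. In peripheral tissues of the mouse, RNA of Arntl, Npas2 and Clock is highest around the change from night to day, that of Nr1d1 and Per3 peaks during the hours of light, that of Per1 and Per2 follows towards dusk, and that of Cry1 comes late in the night. In the aorta this loop runs in smooth muscle, endothelium and fibroblasts, and it is known for the daily rhythm of vascular tone.

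Because the loop has an activating and a repressing arm, the start regions of its genes were searched for the sequences that it uses. RefSeq promoter windows (GRCm38.p6, 300 bases, most of them upstream of a start) were matched for 9 of the 10 genes, all but Per2. On both strands, the E-box CACGTG lay in windows of Per1 and Cry1, against 8.09% of all 27025 genes with windows (7.15% of 32851 windows). Its variant CACGTT lay in those of Cry1, Cry2 and Nr1d1, against 5.44% of genes (4.68% of windows). The D-box TTANGTAA, bound by DBP, TEF and HLF, lay at 2 places in the Per3 window, against 2.72% of genes (2.32% of windows). The ROR element ANTAGGTCA lay in an Arntl window, against 0.707% of genes (0.661% of windows). It contains the shorter TAGGTCA, found in 2.97% of genes (2.61% of windows). The cyclic AMP element TGACGTCA lay in 0 of the 9 genes' windows, against 2.03% of genes (1.79% of windows). These are matches of letters in a short window and were not tested as binding sites. Starts are those of the RefSeq windows. The Per1 stretch, from 1 of its 2 windows, lies before a start inside the annotated gene (69095217 to 69109960). The Cry2 stretch is not printed. The stretches that follow are shown 5′ to 3′ on the gene's strand with the matches in capitals. In them AACGTG is the variant read on the other strand.
Arntl, chr7:113207529-113207557, plus strand, 29 bases just after a start, ROR element: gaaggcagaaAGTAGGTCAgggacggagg
Per1, chr11:69098743-69098828, plus strand, before the start, E-box: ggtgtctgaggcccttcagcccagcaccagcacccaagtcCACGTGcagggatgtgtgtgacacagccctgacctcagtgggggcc
Per3, chr4:151044776-151044910, minus strand, before the start, D-boxes: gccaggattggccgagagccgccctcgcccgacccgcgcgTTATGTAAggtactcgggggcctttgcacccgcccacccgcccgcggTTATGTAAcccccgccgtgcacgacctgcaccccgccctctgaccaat
Cry1, chr10:85185069-85185173, minus strand, before the start, E-box variant and E-box: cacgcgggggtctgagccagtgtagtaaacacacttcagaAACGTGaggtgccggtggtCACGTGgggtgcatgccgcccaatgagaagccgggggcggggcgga
Nr1d1, chr11:98775378-98775445, minus strand, before the start, E-box variant: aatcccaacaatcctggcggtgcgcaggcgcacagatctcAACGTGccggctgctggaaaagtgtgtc

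The libraries held between 31049632 and 45832185 counted reads. The smooth muscle markers Acta2, Myh11, Tagln, Cnn1 and Smtn were all present, with a summed level of 27236 to 39239.7 (CPM, counts scaled to a common library size after TMM normalization). Young replicate 1 went against the stated sex in sex-linked genes, with Xist at 305.6 CPM against at most 0.636 in the other libraries and Ddx3y at 1.09 CPM against at least 44.8. Heart muscle RNA was also highest there. The 5 heart markers (4 tested) summed to 266 CPM in young replicate 1, to 40.6 and 44.2 in the other young libraries and to 40.4 to 54.4 in aged aorta, and Nppa was at 0 counts in young replicate 3 and aged replicate 1. Brown fat markers (5 of 5 tested) summed to 80.9 to 571 CPM in young and 72.6 to 1904 in aged aorta, the highest being aged replicate 2, and none was at 0. Macrophage markers (5 of 5 tested) summed to 38.7 to 47.3 CPM in young and 57.01 to 152 in aged aorta, again with none at 0. Fibroblast markers (5 of 5 tested) summed to 1717 to 2733 CPM in young and 1621 to 5934 in aged aorta, and endothelial markers (5 of 5 tested) to 377 to 461 in young and 317 to 1563 in aged aorta, highest in aged replicate 3, with none at 0. Mitochondrial transcripts took 14.9 to 21.2% of counts in young and 23.1 to 30.4% in aged libraries. The part of these cell types, of mitochondrial RNA or of the sex of the mouse in the clock values was not tested. The fold changes and overlaps of the clock genes are therefore given with and without young replicate 1 and aged replicate 2. Lists of other genes are given on all 6 libraries only, apart from the number of accessory and output genes called.

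None of the 10 clock genes was called different between aged and young aorta, and the libraries of both ages overlapped for each. With edgeR's quasi-likelihood test and Benjamini-Hochberg adjustment over all 16612 genes, 0 of 10 had an adjusted p below 0.05, against 0.0% of all genes tested. At an unadjusted p below 0.05 there was 1 clock gene, Clock (10.4% of all genes). DESeq2 called 0 of the 10 (2.26% of all genes, 338 genes), with 2 (Clock and Npas2) at an unadjusted p below 0.05 against 11.9% of genes. Limma called 0 of the 10 and 0.0% of genes on FPKM with a pseudocount of 1 or 0.1, with 1 (Clock) at an unadjusted p below 0.05 against 16.1% and 16.0% of genes. The groups did not overlap for 0 of the 10 genes, against 16.5% of all genes. The fitted log2 fold change of aged over young was positive for 3 (Per1, Cry1 and Nr1d2) and negative for 7, with a median of -0.33 beside 0.02 over all genes tested. The arms stood furthest apart in young replicate 1, in opposite directions.

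**Figure D1:**
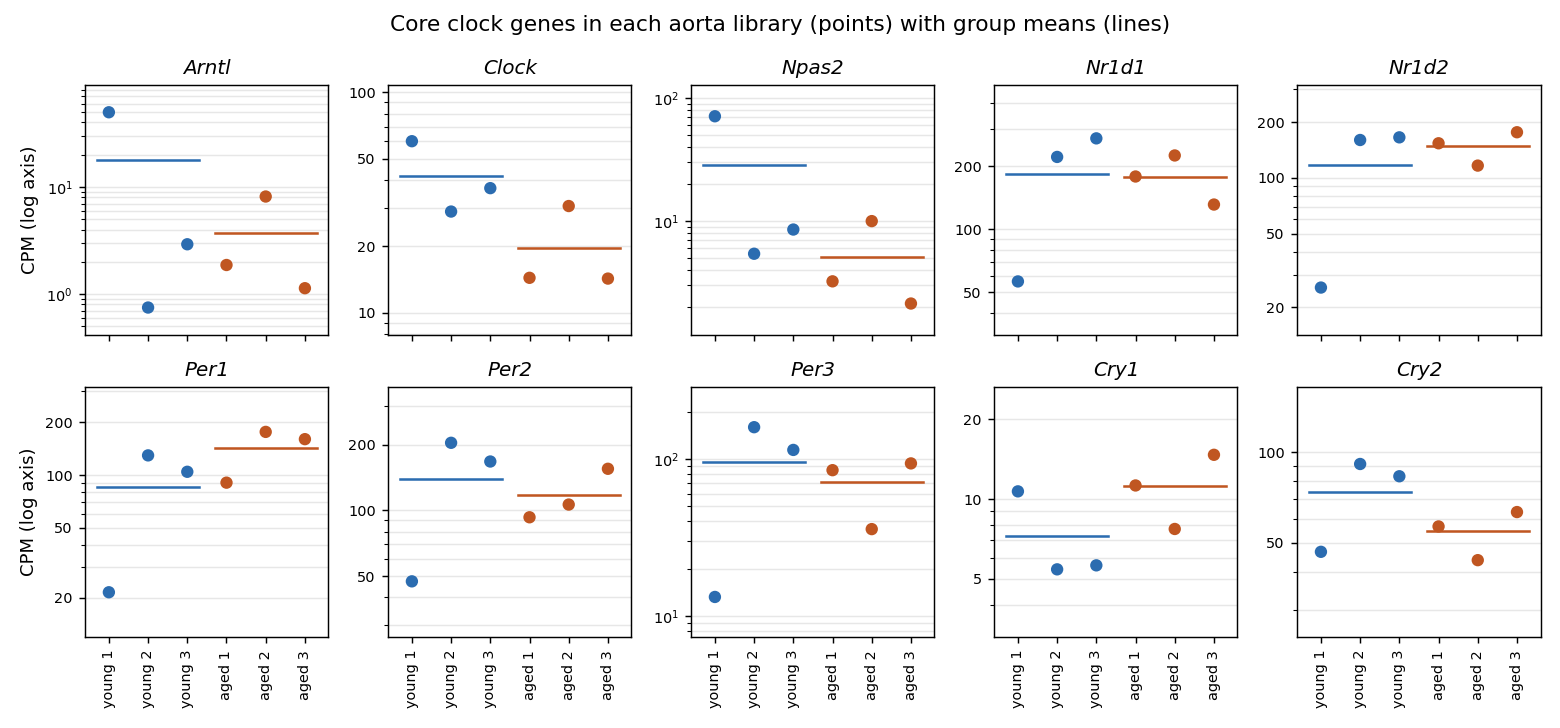
CPM of each clock gene (vertical axes, logarithmic, each with its own range) in the 3 young (blue) and 3 aged (orange) aorta libraries, with the mean of each group as a line. Arntl, Clock and Npas2 were highest in young replicate 1, where the Nr1d and Per genes were lowest, and the groups overlapped for every gene.

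The active arm was led by Arntl, whose protein pairs with CLOCK or NPAS2 (ENSMUSG00000055116, chromosome 7 of GRCm38, 113207465 to 113314126, plus strand, GENCODE M21). Arntl was at 49.8, 0.747 and 2.91 CPM in young replicates 1, 2 and 3, and at 1.87, 8.14 and 1.13 CPM in aged replicates 1, 2 and 3. Its highest library stood 66.7-fold above its lowest, which rested on 26 counts. Both extremes were young mice, and aged replicate 2 came next below young replicate 1. The young mean was 17.8 ± 27.7 CPM and the aged mean 3.71 ± 3.85 CPM (SD, n = 3 each). The log2 fold change of -2.26 (SE 1.45, adjusted p = 0.611 from edgeR) turned to 1.04 (SE 1.01, adjusted p = 0.703 from edgeR) without young replicate 1, and was -0.28 when aged replicate 2 was left out as well.

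Npas2, which can stand in for CLOCK as partner of the Arntl protein, lies on chromosome 1 (39193731 to 39363236, plus strand) and followed Arntl. It was at 71.2, 5.40 and 8.51 CPM in young replicates 1, 2 and 3, and at 3.22, 9.97 and 2.12 CPM in aged replicates 1, 2 and 3. Young replicate 1 was again far above the rest, and aged replicate 2 again came next. The log2 fold change of -2.47 (SE 1.06, adjusted p = 0.484 from edgeR) was -0.43 (SE 0.67) without young replicate 1 and -1.37 (SE 0.40, adjusted p = 0.218 from edgeR) without aged replicate 2 as well. Clock itself (chromosome 5, 76209868 to 76304792, minus strand) had a narrower span, with 60.0, 28.8 and 36.8 CPM in young and 14.4, 30.5 and 14.3 CPM in aged replicates 1, 2 and 3. Aged replicate 2 lay within the young values and the other aged libraries lay below all of them. The young mean was 41.9 ± 16.2 CPM and the aged mean 19.7 ± 9.32 CPM (SD, n = 3 each). The log2 fold change was -1.08 (SE 0.39, adjusted p = 0.429 from edgeR) and stayed negative at -0.72 without young replicate 1 and -1.19 without both doubted libraries (adjusted p = 0.110 from edgeR).

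Nr1d1 and Nr1d2, the REV-ERB receptors that repress Arntl, were lowest in young replicate 1, where Arntl was highest, but Nr1d1 was not low in aged replicate 2, which had the next highest Arntl. Nr1d1 (chromosome 11, 98767932 to 98775333, minus strand) was at 56.3, 222 and 272 CPM in young and at 179, 225 and 131 CPM in aged replicates 1, 2 and 3. Both ends of the range were young. The log2 fold change was -0.04 (SE 0.52, adjusted p = 0.985 from edgeR), -0.46 (SE 0.26) without young replicate 1 and -0.67 (SE 0.22, adjusted p = 0.245 from edgeR) without aged replicate 2 as well. It was positive, at 0.13 to 0.37, without young replicate 2, young replicate 3 or aged replicate 3. Nr1d1 shares 263 exonic bases with Thra, a thyroid hormone receptor on the opposite strand, and whether strand was used in counting is not given in the sources used here. Thra ran from 124 CPM in aged replicate 3 to 269 CPM in young replicate 1, so it was highest where Nr1d1 was lowest. Nr1d2 (chromosome 14, 18204054 to 18239127, minus strand) was at 25.6, 160.1 and 165 CPM in young and at 154, 116 and 176 CPM in aged replicates 1, 2 and 3. Outside young replicate 1 its libraries stayed within 1.51-fold of each other, the tightest span of the 10 genes. Its log2 fold change of 0.35 turned to -0.12 (SE 0.22, adjusted p = 0.848 from edgeR) without that library.

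The Per genes encode the period proteins of the repressing complex. Per1 (chromosome 11, 69095217 to 69109960, plus strand), which also answers directly to cyclic AMP and glucocorticoid signals, was at 21.5, 129 and 104 CPM in young and at 90.5, 176 and 160.2 CPM in aged replicates 1, 2 and 3. Young replicate 1 was lowest, and aged replicates 2 and 3 lay above all young libraries. The log2 fold change was 0.74 (SE 0.59, adjusted p = 0.676 from edgeR) and 0.29 without young replicate 1. Per2 (chromosome 1, 91415982 to 91459324, minus strand) was at 47.3, 204 and 168 CPM in young and at 93.1, 106 and 155 CPM in aged replicates 1, 2 and 3. The other young libraries lay above all aged ones, while young replicate 1 lay below them. Per3 (chromosome 4, 151003652 to 151044665, minus strand), whose window holds the D-boxes printed above, was at 13.2, 159 and 114 CPM in young and at 84.8, 35.7 and 93.6 CPM in aged replicates 1, 2 and 3. It had the same arrangement as Per2, except that aged replicate 2 fell well below the other aged libraries. Without young replicate 1, the log2 fold changes of Per2 and Per3 went from -0.24 to -0.64 (SE 0.26) and from -0.42 to -0.93 (SE 0.42), with adjusted p of 0.440 and 0.456 from edgeR.

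The cryptochromes, which hold the strongest repressors of the loop, spanned less than the Per genes over the 6 libraries. Without young replicate 1 this no longer held, since the range of Cry1 was then 1.43 on the log2 scale against 0.96 for Per1 and 1.13 for Per2. Cry1 (chromosome 10, 85131700 to 85185064, minus strand) was at 10.7, 5.43 and 5.62 CPM in young and at 11.3, 7.71 and 14.7 CPM in aged replicates 1, 2 and 3. Unlike the Per genes, Cry1 was not low in young replicate 1, which lay among the aged libraries. Cry2 (chromosome 2, 92403646 to 92434043, minus strand) was at 46.7, 91.3 and 83.2 CPM in young and at 56.7, 43.8 and 63.2 CPM in aged replicates 1, 2 and 3. Its highest library was 2.09-fold above its lowest, the smallest such ratio of the 10 genes over the 6 libraries. The log2 fold changes were 0.63 (SE 0.36) for Cry1 and -0.43 (SE 0.28) for Cry2, with adjusted p of 0.578 and 0.610 from edgeR. Without young replicate 1 they were 1.03 (SE 0.33) and -0.67 (SE 0.20), with an adjusted p of 0.397 each from edgeR. Cry2 shares 295 exonic bases with D930015M05Rik on the opposite strand, which stayed at 1.41 CPM or below.

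Leaving out young replicate 1, the groups did not overlap for 4 of the 10 genes, with Per2, Per3 and Cry2 lower and Cry1 higher in every aged library than in both remaining young libraries. That arrangement was met by 32.8% of all genes tested, so 4 of 10 is near the background. Per2, Cry1 and Cry2 had an unadjusted p below 0.05 in that fit, against 11.3% of all genes, and 0 of the 10 an adjusted one (0.0% of all genes). With aged replicate 2 left out too, 7 of the 10 did not overlap, against 51.1% of all genes. Cry1 was higher and Clock, Npas2, Per2, Per3, Cry2 and Nr1d1 were lower in aged aorta, and 0 of the 10 were called by edgeR (0.0% of all genes), the lowest adjusted p being 0.110 (Clock). At an unadjusted p below 0.05 there were 6 (Clock, Npas2, Per3, Cry1, Cry2 and Nr1d1), against 16.5% of all genes. These counts rest on 2 libraries per group.

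**Figure D2:**
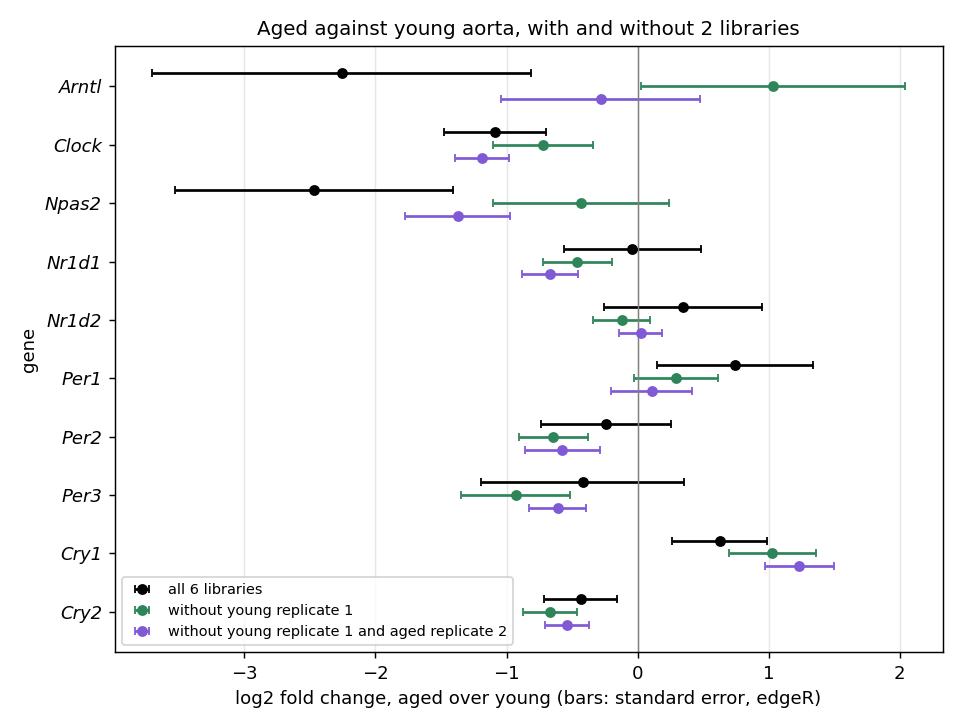
Log2 fold change of aged over young aorta from edgeR (horizontal axis) with its standard error for each clock gene, fitted on all 6 libraries (black), without young replicate 1 (green) and without young replicate 1 and aged replicate 2 (purple). The value of Arntl moved from -2.26 to 1.04 and -0.28, whereas Cry1 stayed between 0.63 and 1.24 and Cry2 between -0.67 and -0.43.

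Read library by library, young replicate 1 had the widest gap between the arms. Each gene was set against its own median over the 6 libraries. The active arm then averaged 2.93 in young replicate 1 on the log2 scale and the 7 repressors averaged -1.60. In young replicates 2 and 3 the active arm was at -0.65 and 0.32 and the repressors at 0.25 and 0.13. In aged replicates 1, 2 and 3 the active arm was at -0.80, 0.79 and -1.24 and the repressors at -0.12, -0.27 and 0.16. The arms thus had opposite signs in young replicates 1 and 2 and aged replicates 2 and 3, and the same sign in young replicate 3 and aged replicate 1. In aged replicate 2 the low mean of the repressors came mostly from Per3, at -1.32, while Per1 at 0.60 and Nr1d1 at 0.18 lay above their medians. All 3 active genes were highest in young replicate 1, as were 13.5% of the 10969 genes that averaged 5 CPM or more. Lowest there were Per1, Per2, Per3, Nr1d1 and Nr1d2, 5 of the 10 clock genes against 11.8% of those genes.

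**Figure D3:**
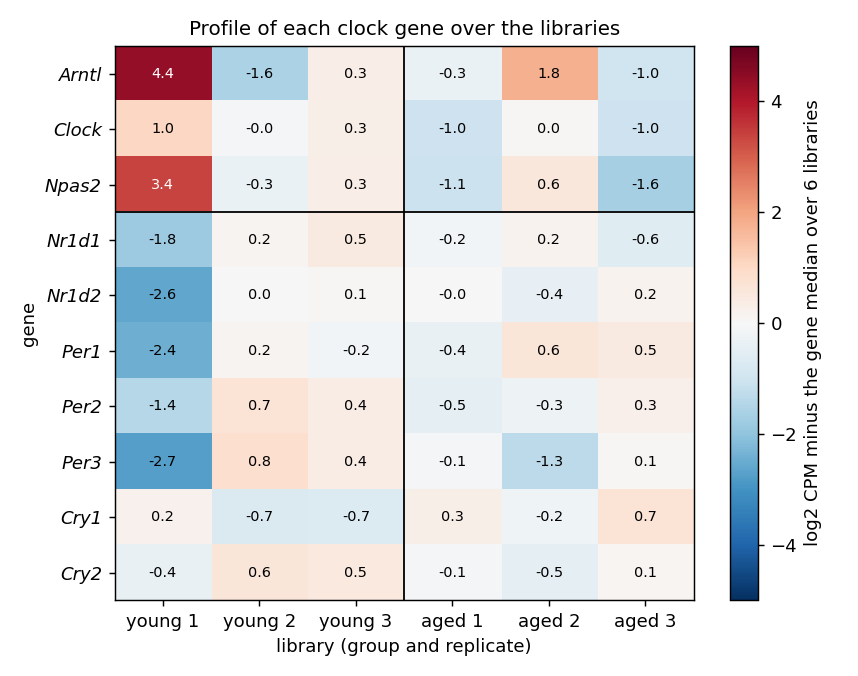
Log2 CPM of each clock gene minus that gene's median over the 6 libraries (colour and printed value, red above and blue below), with the active arm above the horizontal line and young libraries left of the vertical line. Young replicate 1 showed Arntl 4.4 above and Per3 2.7 below their medians, while Cry1 was 0.2 above.

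Ratios between clock genes within a library do not depend on how libraries are scaled, although their level depends on gene lengths, so only their change from library to library was read. The log2 ratio of Nr1d1 to Arntl was 0.18 in young replicate 1 and between 4.79 and 8.21 elsewhere. From high to low the libraries were ordered young replicate 2, aged replicate 3, aged replicate 1, young replicate 3, aged replicate 2 and young replicate 1. The log2 ratio of Per3 to Arntl gave the same order, from 7.74 in young replicate 2 over 2.13 in aged replicate 2 to -1.92 in young replicate 1, although both ratios share Arntl. Young and aged libraries were interleaved in this order. For Nr1d1 to Arntl the young mean was 4.98 ± 4.24 and the aged mean 6.08 ± 1.12 (SD, n = 3 each), a difference of 1.10 that was smaller than the spread and became -1.30 without young replicate 1.

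Cry1 against Per3 set the libraries differently. This log2 ratio was -0.31 in young replicate 1 and -4.87 and -4.34 in young replicates 2 and 3, with -2.91, -2.21 and -2.67 in aged replicates 1, 2 and 3. The aged libraries lay between young replicate 1 and the other young libraries. The young mean was -3.17 ± 2.499 and the aged mean -2.60 ± 0.36 (SD, n = 3 each), closer together than the spread of the young mice. Without young replicate 1 the young mean was -4.61, and the ages then did not overlap. That follows from Cry1 being higher and Per3 lower in every aged library than in both remaining young libraries. Npas2 to Arntl was at 0.51, 2.85 and 1.55 in young and at 0.79, 0.29 and 0.91 in aged replicates 1, 2 and 3, so Npas2 fell less than Arntl in the library where Arntl was lowest.

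**Figure D4:**
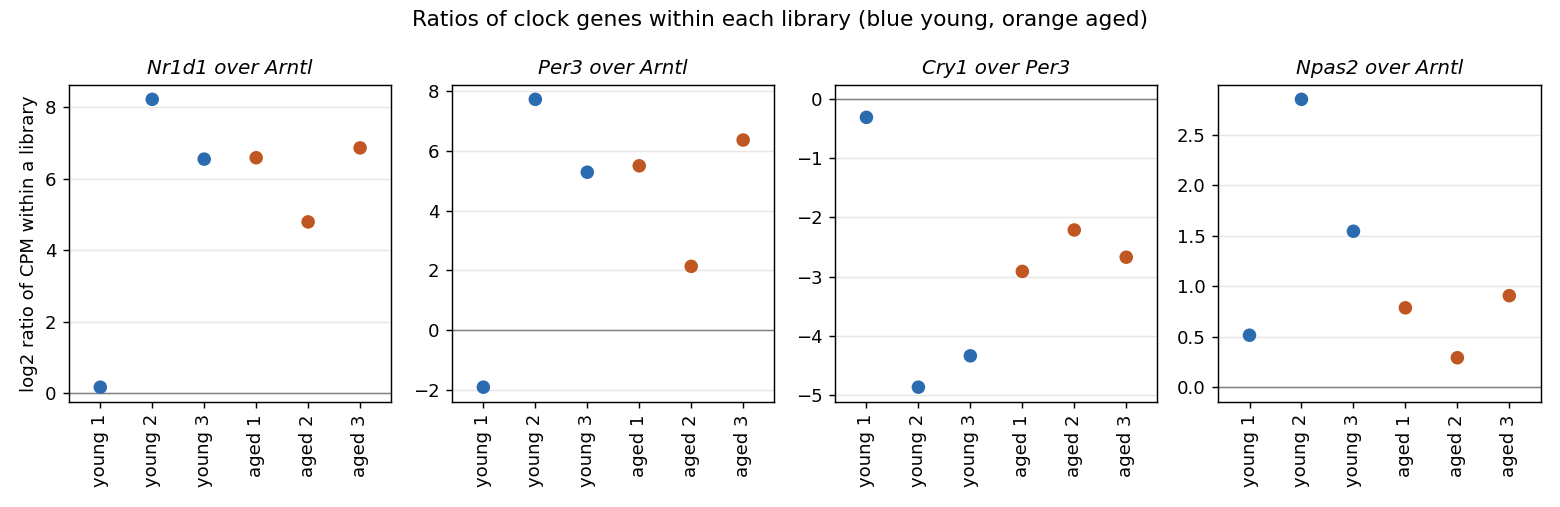
Log2 ratio of the CPM of the named clock genes within each library (vertical axes) for young (blue) and aged (orange) aorta. Nr1d1 over Arntl ran from 0.18 in young replicate 1 to 8.21 in young replicate 2, so both extremes were young mice.

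The spread of the clock genes over the 6 libraries was wide for aortic genes. The range of log2 CPM was 5.96 for Arntl, 5.03 for Npas2, 3.59 for Per3, 3.03 for Per1 and 2.78 for Nr1d2. It was 2.27 for Nr1d1, 2.11 for Per2, 2.07 for Clock, 1.43 for Cry1 and 1.06 for Cry2. The median of the 10 was 2.53, beside 0.765 over the 10969 genes averaging 5 CPM or more. A range of at least 2 was reached by 8 of 10 clock genes, against 8.59% of those genes and 20.7% of all genes tested, which include weakly expressed ones. Arntl had the 32nd widest range of the 10969 and Npas2 the 55th. Without young replicate 1, 3 of 10 (Arntl, Npas2 and Per3) still spanned at least 2, against 7.56% of genes. Arntl then spanned 3.35, Per3 2.15 and Npas2 2.20, while Per1, Nr1d1 and Nr1d2 spanned 0.96, 1.05 and 0.60.

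**Figure D5:**
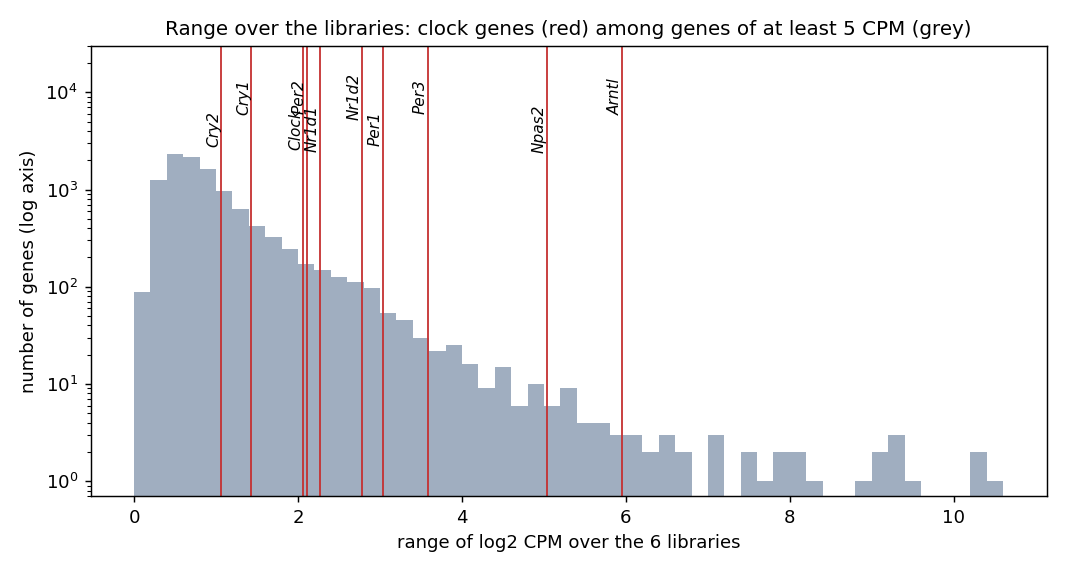
Number of genes (vertical axis, logarithmic) by the range of their log2 CPM over the 6 libraries, for the 10969 genes averaging 5 CPM or more, with red lines at the clock genes. Arntl and Npas2 lie at 5.96 and 5.03, far from the median of 0.765, and Cry2 is nearest to it at 1.06.

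Levels between genes were compared per length, as the FPKM that the authors gave. Nr1d1 was the most abundant clock gene in 6 of 6 libraries, at 17.4 FPKM in young replicate 1 and 34.4 to 88.2 in the others. Over the 6 libraries the mean was 53.8 ± 25.5 FPKM (SD, n = 6), followed by Nr1d2 at 22.1 ± 9.63, Per2 at 20.2 ± 9.90 and Per1 at 18.04 ± 8.35 (SD, n = 6 each). Cry2 at 9.32 ± 3.44 and Per3 at 7.99 ± 5.50 FPKM came next, then Npas2 at 3.29 ± 5.36 and Cry1 at 2.44 ± 0.81 (SD, n = 6 each). Clock at 2.09 ± 1.24 and Arntl at 1.34 ± 2.46 FPKM were lowest (SD, n = 6 each). All 9 neighbouring pairs in this order overlapped over the 6 libraries. Without young replicate 1, 7 of the 9 did, and Nr1d1 over Nr1d2 and Per3 over Npas2 no longer overlapped. Arntl was the least abundant in 5 of 6 libraries, with 0.0947 to 0.926 FPKM, and reached 6.32 FPKM in young replicate 1. Npas2 ranked 8 or 9 in 5 libraries and 2 in young replicate 1, at 14.2 FPKM.

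Genes with the most similar profile were sought among those averaging 5 CPM or more, by the root mean square distance of log2 CPM over the 6 libraries after centring each gene. Nearest to Arntl was Nfil3, a repressor of D-box genes, at a distance of 0.81. Its values were 58.6, 3.08 and 14.3 CPM in young and 12.2, 18.2 and 5.17 CPM in aged replicates 1, 2 and 3, so young replicates 1 and 2 were again the extremes. Npas2 followed at 0.83, then Slc25a34, a mitochondrial carrier, at 0.93. Mb and Actc1, the myoglobin and cardiac actin genes of heart muscle, came next at 0.97 and 0.98. They too were highest in young replicate 1, at 69.5 and 58.9 CPM, where the heart markers summed highest. Nearest to the mirror image of Arntl were Tmem170b at 0.67, Dbp at 0.73, Ciart at 0.85, Per3 at 0.90 and Ptch1, the hedgehog receptor, at 0.95. Ciart, which encodes the clock repressor CHRONO, was at 0.681 CPM in young replicate 1 and at 14.8 to 25.4 CPM elsewhere.

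Nearest to Nr1d1 were Atp2b1, a calcium pump, at 0.20, then Pcgf5, Rprd1b and Slc4a7 at 0.21 to 0.22 and Cipc, whose protein binds CLOCK and inhibits it, at 0.26. Cipc was at 6.75, 44.0 and 44.2 CPM in young and at 30.8, 33.4 and 27.0 CPM in aged replicates 1, 2 and 3. Like Nr1d1, it was lowest in young replicate 1 and its groups overlapped. With 6 libraries such likeness is a description.

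No accessory clock gene was called between the ages either. Of 23 listed, 22 were tested by edgeR and 0 were called, against 0.0% of all genes. At an unadjusted p below 0.05 there was 1 (Nampt), against 10.4% of all genes. In aged aorta 12 were higher and 10 lower, with a median log2 fold change of 0.01 beside 0.02 over all genes. Csnk1d and Csnk1e, the casein kinases that mark PER proteins for decay, varied little over the libraries, with ranges of 0.39 and 0.68 on the log2 scale. By contrast Bhlhe40 and Bhlhe41, the DEC repressors that compete at E-boxes, had ranges of 2.54 and 2.78. Bhlhe40 was at 13.4, 72.9 and 48.0 CPM in young and 55.3, 51.1 and 78.3 CPM in aged replicates 1, 2 and 3. Bhlhe41 was at 8.30 CPM in young replicate 1 and 26.0 to 57.2 CPM elsewhere, so both were lowest in the library where Arntl was highest. Ciart, given above, Gsk3b and Fbxl21 were among the others with ranges of at least 2, Fbxl21 at a low level of at most 1.22 CPM.

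Of the 12 output genes, 9 were lowest in young replicate 1, against 11.8% of the 10969 genes averaging 5 CPM or more. Highest in aged replicate 2 were 3 and in aged replicate 3 were 5, for which no share over all genes was taken. Of 12 listed, 12 were tested and 0 were called by edgeR, against 0.0% of all genes. At an unadjusted p below 0.05 there were 3 (Usp2, Por and Hsd11b1), against 10.4% of all genes. In aged aorta 10 were higher, with a median log2 fold change of 0.72 beside 0.02 over all genes. Dbp, the D-box activator driven by E-boxes, was at 10.1, 436 and 316 CPM in young and at 261, 125 and 205 CPM in aged replicates 1, 2 and 3. Its relatives Tef and Hlf were lowest in young replicate 1 as well, at 28.5 and 19.0 CPM, with aged replicate 2 next at 58.4 and 22.3 CPM, as for Per3. Wee1, a cell cycle kinase under E-box control, was at 4.73 CPM in young replicate 1 and at 13.0 to 23.9 CPM elsewhere. Usp2, Pdk4 and Lpin1 instead peaked in aged replicate 2, at 28.4, 361 and 98.3 CPM, the library with the highest brown fat markers. Hsd11b1, which activates glucocorticoids, was highest in aged replicate 1 at 70.4 CPM, and its ages overlapped.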

How the data were processed

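RNA of 6 mouse aortas (3 young, 3 aged) was sequenced single-ended. The authors deposited read counts per gene, which are whole numbers without normalization, on mm10 per the labels. They also deposited FPKM, counts scaled for gene length and library reads. Aligner, counting tool and annotation are not given in the sources used here. Positions come from GENCODE M21 and promoter windows from RefSeq, both on GRCm38.

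In R 4.3.3, counts were filtered by edgeR 4.0.16 (filterByExpr by age, minimum count 10, minimum total 15), TMM-normalized and fitted with quasi-likelihood models across all genes, without covariates, adjusted after Benjamini-Hochberg, at a threshold of 0.05. CPM use the TMM library sizes. The fit was tested on simulated data. FPKM were used for levels and in limma 3.58.1 on log2(FPKM + 1) and log2(FPKM + 0.1). Other alternatives were DESeq2 1.42.0, RLE factors, no filter, removal of mitochondrial genes, a replicate block and libraries left out.

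Members and lists were chosen with earlier results of these data known. Named are the 10 clock genes, listed accessory and output genes with a log2 range of at least 2, the 5 nearest profiles to Arntl, its mirror and Nr1d1, and overlapping genes. Some listed genes are not reported here. Nampt, Por, Csnk1d, Csnk1e, Fkbp5, Tsc22d3 and the ratios other than Nr1d1 and Per3 to Arntl were chosen after their values were seen. Nothing in the labels states more than separate mice, so p-values measure only the spread between these libraries.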

Additional observations from a re-analysis of the deposited data

How the results depend on the processing

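The count of 0 clock genes called held under all 14 alternatives, as did that of 0 accessory and output genes, with adjusted p for the clock genes of at least 0.110. Over all genes, DESeq2 called 338 of 14955, edgeR without aged replicate 2 called 110 of 17147, and each other alternative called 0. Without aged replicate 2 the log2 fold change of Clock was -1.54 (SE 0.33, adjusted p = 0.128 from edgeR). The number of clock genes whose ages did not overlap was 0 with RLE factors, no filter or mitochondrial genes removed, and 1 (Clock, lower in aged aorta) on FPKM with a pseudocount of 1 or 0.1. With 1 library left out it lay between 0 and 4, the latter without young replicate 1 (3 without aged replicate 2), and with young replicate 1 and aged replicate 2 both left out it was 7. Over all genes the share without overlap was 16.5% on all 6 libraries and 32.8% without young replicate 1. With aged replicate 2 left out too it was 51.1%. This share was not taken for the other settings, so their counts have no background beside them. The cause of the changed counts was not tested.

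With 1 library left out, the log2 fold change lay between -3.57 and 1.04 for Arntl, -0.64 and 0.15 for Per2, -0.93 and 0.17 for Per3, -0.46 and 0.37 for Nr1d1, and -0.12 and 0.69 for Nr1d2. Arntl and Nr1d2 changed sign without young replicate 1, Per2 and Per3 without young replicate 2. Nr1d1, at -0.04, changed sign without young replicate 2 or 3 or aged replicate 3. With the replicate block it was 0.20, no clock gene was called and no other clock gene changed sign. Deviations from the group means correlated at 0.079, 0.117 and 0.096 between young and aged libraries of the same replicate number. Libraries of different numbers were not compared, so these values cannot decide whether replicate numbers pair the mice. On FPKM the median over all genes was -0.12 and -0.19 with pseudocounts of 1 and 0.1. The lowest Arntl value rested on 26 counts, which limits its precision.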

Other observations

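Genes that answer to glucocorticoids, a signal to which Per1 also responds, had mostly positive fold changes in aged aorta, though none was called. Of 11 listed genes besides Per1, 11 were tested and 10 had a positive log2 fold change, with a median of 1.72 beside 0.02 over all genes. Called by edgeR were 0, against 0.0% of all genes, and 6 had an unadjusted p below 0.05, against 10.4%. The ages did not overlap for 5 of the 11, against 16.5% of all genes. These counts and the median were taken on all 6 libraries only. Fkbp5, Zbtb16, Klf9, Mt1, Mt2, Cdkn1a, Errfi1 and Ddit4 were highest in aged replicate 2. Tsc22d3 and Sgk1 were highest in aged replicate 3, and Dusp1 in young replicate 1. Lowest in young replicate 1 were Fkbp5, Tsc22d3, Sgk1, Zbtb16, Mt1, Mt2 and Ddit4, and the other listed genes were lowest in young replicate 2. Fkbp5, a chaperone of the glucocorticoid receptor, was at 6.27, 16.4 and 14.7 CPM in young and at 55.6, 177 and 88.9 CPM in aged replicates 1, 2 and 3, with an adjusted p of 0.306 from edgeR. Tsc22d3 was at 9.99 to 34.8 CPM in young and 59.9 to 137 in aged aorta. Both were lowest in young replicate 1, as was Per1, and whether these genes share a cause was not tested.

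Of 14 immediate early genes, 14 were tested and 5 had a positive log2 fold change, with a median of -0.05 beside 0.02 over all genes. Called by edgeR were 0, against 0.0% of all genes, and 3 had an unadjusted p below 0.05, against 10.4%.

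Gsk3b, a kinase that acts on several clock proteins, took a low level in young replicate 1 and aged replicate 1 (5.68 and 5.597 CPM, from 275 and 186 counts) and a level of 52.0 to 60.2 CPM in the other 4 libraries. This arrangement matched neither age nor the order of libraries by Arntl. Both low libraries carried replicate number 1, and a cause was not tested.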
